A study of Homo sapiens with 9 samples.

Results

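The integrated stress response gene group described here holds 46 genes: the transcription factor ATF4 and its partners, genes that ATF4 is known to activate, the enzymes of serine, one-carbon, proline and asparagine synthesis, amino acid transporters, and the cytosolic tRNA synthetases that belong to the same programme. The genes were taken by symbol, and the list was chosen with earlier results of these data known. All 46 were among the 23710 entries of the deposited count table, and 45 passed the filter on low counts and were tested. CBS was the exception. They fall into 5 roles, with 7 transcription factors, 7 feedback and stress effectors, 12 synthesis enzymes, 8 transporters and 12 tRNA synthetases.

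The RNA came from MDA-MB-231, a human line of triple-negative breast cancer with mesenchymal features, transduced with pGIPZ lentivirus and cultured in DMEM with 5% FBS. UGDH makes UDP-glucuronate from UDP-glucose, and the study asks what its depletion does to the transcriptome. The 3 groups were shUGDH-2 and shUGDH-1, each with its own hairpin against UGDH, and shNT with a non-targeting hairpin, at 3 libraries each. All 9 libraries therefore came from transduced cells, and untransduced cells were not analysed here. The labels call the replicates biological but do not say whether each was transduced separately, so the p-values cover only the variation among the libraries at hand.

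ATF4 is controlled mainly at translation. Stress kinases phosphorylate the initiation factor eIF2, which lowers general protein synthesis and lets ribosomes reach the ATF4 coding sequence. ATF4 then pairs with CEBP proteins on composite CEBP-ATF elements and raises genes for amino acid uptake, amino acid synthesis and tRNA charging. Its targets also include factors that switch the response off again. In breast cancer the serine pathway differs between lines, and MDA-MB-231 is known as a line with little PHGDH. Protein and eIF2 phosphorylation were not measured here, so every value below is a transcript level.

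The hairpins are shown first because every comparison below sets a hairpin against another. Matches to the letters of the CEBP-ATF element follow, for part of the group. The hairpin sequences, as the labels give them, were these.
shUGDH-2: atatacttcagatctgctg
shUGDH-1: ttgcatcaaatatgcgacg
shNT: atctcgcttgggcgagagtaag
Each UGDH hairpin, 19 bases long, was fully antisense to transcripts of UGDH on chromosome 4 and over its full length to no other gene. Only full-length matches were searched, so shorter matches to the 46 genes were not tested. The 22-base shNT sequence matched no transcript in full. UGDH itself stood at 8.09, 6.62 and 6.79 CPM (counts scaled to a common library total) in shUGDH-2, at 7.62, 7.30 and 8.03 CPM in shUGDH-1, and at 53.0, 55.6 and 50.3 CPM in shNT. Its log2 fold change was -2.89 with shUGDH-2 and -2.80 with shUGDH-1.

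RefSeq promoter windows (build GRCh38.p14, 250 bases before to 50 after a gene's start) were found for 39 of the 46 genes. NUPR1, PSPH, SHMT2, ALDH1L2, PYCR1, LARS and YARS had none in the table used. The letters TGATGNAA, the core of the CEBP-ATF element, stood on either strand in 16 of these 39 genes (41.0%), against 4.46% of all 27305 genes with a window. The stricter core TGATGCAA, which is contained in the first, stood in 10 of 39 (25.6%), against 1.08% of all genes. Counted by window, the first core stood in 25.8% of the group's 62 windows and in 3.62% of all 35116. Genes known as ATF4 targets were listed on purpose, so these differences are not read as a result. The tRNA synthetases held the core in 7 of 10 genes and the transporters in 5 of 8. A match describes the letters in a window and is not a binding site. Of the 16 genes with a core, the 7 tRNA synthetases and 5 others from the other roles are printed, a choice made after their values were seen. Each line runs 5′ to 3′ with the core in capitals.
AARS at chr16:70289675-70289704, plus strand: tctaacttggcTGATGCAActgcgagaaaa
CARS at chr11:3057407-3057436, plus strand: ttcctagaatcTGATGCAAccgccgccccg
GARS at chr7:30594834-30594863, minus strand: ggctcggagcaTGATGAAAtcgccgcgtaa
IARS at chr9:92293692-92293721, plus strand: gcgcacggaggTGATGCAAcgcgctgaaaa
MARS at chr12:57488053-57488082, minus strand: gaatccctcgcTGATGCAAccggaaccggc
NARS at chr18:57621804-57621833, minus strand: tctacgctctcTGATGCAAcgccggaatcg
TARS at chr5:33440956-33440985, minus strand: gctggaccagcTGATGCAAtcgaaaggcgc
ASNS at chr7:97872458-97872487, minus strand: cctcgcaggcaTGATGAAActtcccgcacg
CEBPG at chr19:33374060-33374089, plus strand: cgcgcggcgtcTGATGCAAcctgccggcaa
CHAC1 at chr15:40953251-40953280, minus strand: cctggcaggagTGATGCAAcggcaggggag
SLC38A1 at chr12:46266502-46266531, minus strand: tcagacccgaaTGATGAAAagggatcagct
SLC3A2 at chr11:62881725-62881748, minus strand: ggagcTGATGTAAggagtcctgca
The other 4 genes with a core were ATF3, SLC7A1, SLC1A5 and SLC1A4.

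The group did not move as a unit with either hairpin. With shUGDH-2, 4 of 45 tested genes rose and 5 fell, where 8.04% of all 12546 tested genes rose and 6.81% fell. With shUGDH-1, 7 rose and 9 fell, where 10.5% of all tested genes rose and 10.3% fell. A gene was called at an adjusted p under 0.05 in edgeR's quasi-likelihood test, adjusted over all tested genes, with no minimum fold. The median log2 fold change of the 45 genes was 0.0097 with shUGDH-2, against -0.0059 over all tested genes, and -0.0004 with shUGDH-1, against -0.0026 over all tested genes. The summed level of the 46 genes was 8215, 8262 and 8260.3 CPM in shUGDH-2, 8326, 8318 and 8375 CPM in shUGDH-1, and 8274, 8333 and 8331 CPM in shNT. All 3 shUGDH-2 sums lay below all 3 shNT sums, with a ratio of means of 0.992, and the shUGDH-1 sums overlapped those of shNT. Both comparisons use the same shNT libraries, so they are set side by side and not as independent evidence. In bulk RNA, fewer cells with a transcript and less of it per cell cannot be told apart.

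**Figure D1:**
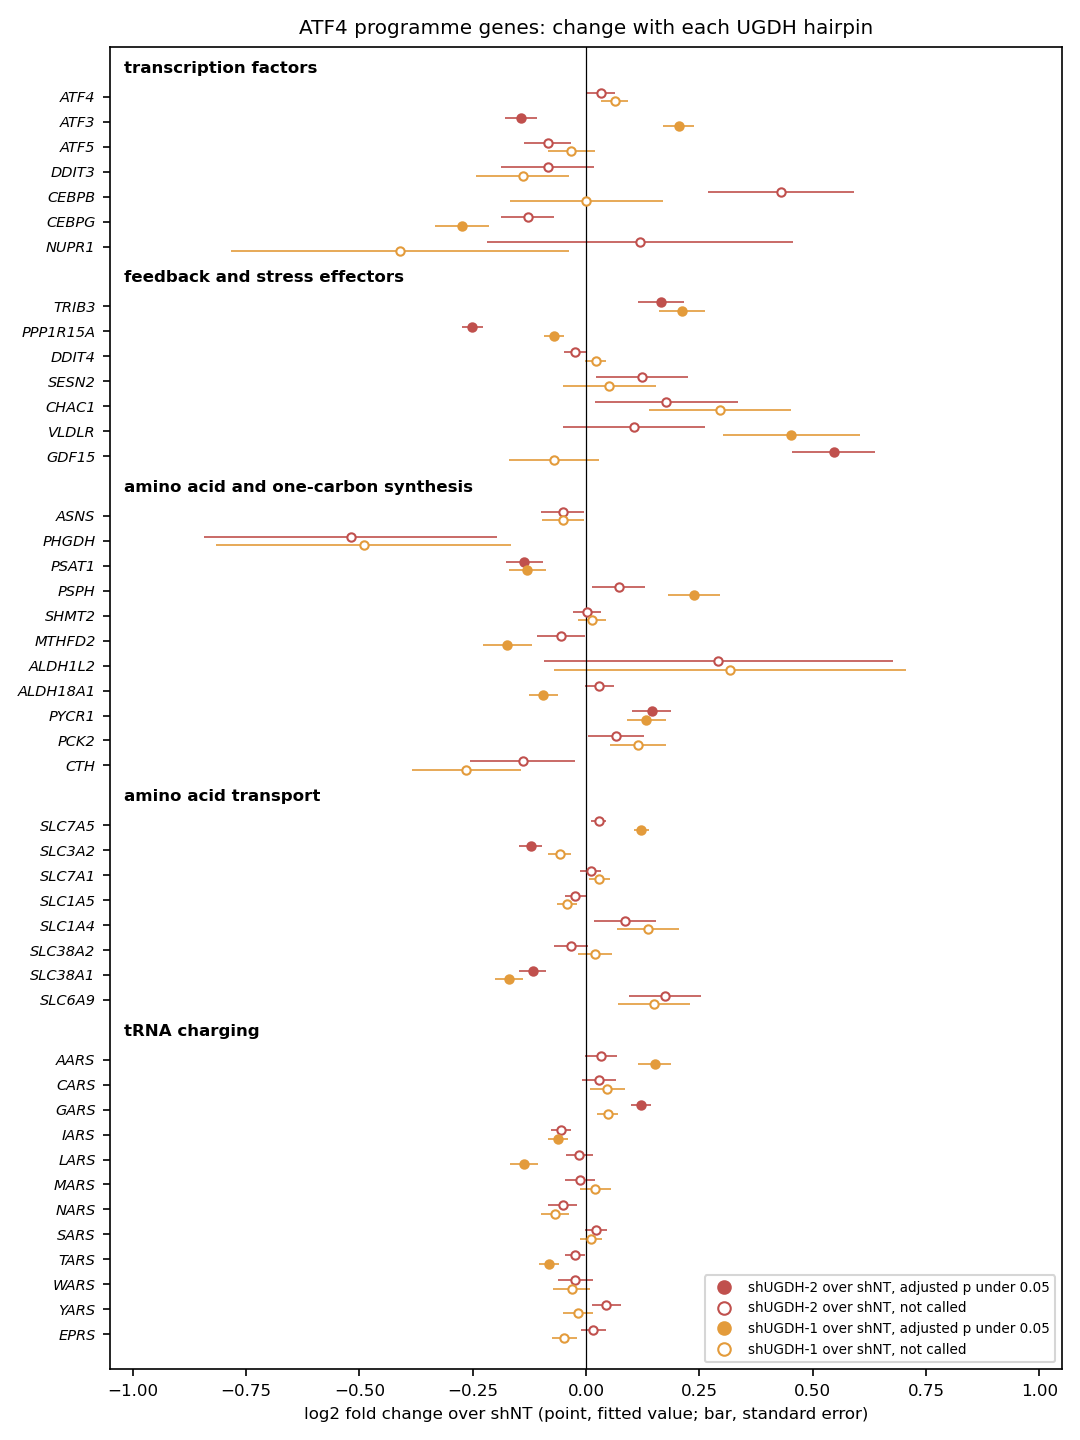
Log2 fold change of each tested gene, by role, for shUGDH-2 against shNT and shUGDH-1 against shNT. Bars are standard errors derived from edgeR's test, and filled symbols mark genes that were called. Most genes lie within 0.2 of the line at 0, and GDF15 with shUGDH-2 (0.55) and VLDLR with shUGDH-1 (0.45) are the called genes farthest from it.

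Most changes in the group were of small size, taking called and uncalled genes together. Over the 45 genes, the median absolute log2 fold change was 0.072 with shUGDH-2 and 0.081 with shUGDH-1, against 0.086 and 0.098 over all tested genes. An absolute log2 fold change of at least 0.2 was reached by 5 of the 45 genes with shUGDH-2 and by 10 with shUGDH-1, where 18.3% and 22.5% of all tested genes reached it. Genes with many counts can be called at small folds, and 26 of the group averaged at least 100 CPM, a level chosen after the data were seen. Among these 26, 7 were called with shUGDH-2 (26.9%) and 11 with shUGDH-1 (42.3%). Among all 2485 genes at that level, 32.4% were called with shUGDH-2 and 39.6% with shUGDH-1. Beside genes of similar level, the share called was therefore close to the background with both hairpins. The median absolute log2 fold change at that level was 0.031 in the group and 0.056 over all genes with shUGDH-2. With shUGDH-1 these medians were 0.06 and 0.065.

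The transcription factors come first, with ATF4 itself. ATF4 stood at 199.7, 193 and 201 CPM in shUGDH-2, at 197, 200.1 and 210.1 CPM in shUGDH-1, and at 191, 192 and 196 CPM in shNT. The shUGDH-2 libraries overlapped those of shNT, and all 3 shUGDH-1 libraries lay just above them. Neither difference was called: the log2 fold change was 0.03 with shUGDH-2 (95% interval -0.03 to 0.09, edgeR adjusted p = 0.53) and 0.06 with shUGDH-1 (95% interval 0.002 to 0.12, edgeR adjusted p = 0.14). Processed copies of ATF4, of which the annotation names 4, could share its reads.

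ATF3, a stress-induced repressor that ATF4 activates, moved in opposite directions with the hairpins. It stood at 133, 141 and 139 CPM in shUGDH-2, at 167, 179.9 and 179 CPM in shUGDH-1, and at 149, 152 and 155 CPM in shNT. The 3 groups did not overlap, with shUGDH-2 lowest and shUGDH-1 highest. ATF3 fell by 0.14 ± 0.04 on the log2 scale (SE) with shUGDH-2 (edgeR adjusted p = 0.0025). It rose with shUGDH-1 by a log2 fold change of 0.20 ± 0.03 (SE; edgeR adjusted p = 4.23e-06). The direct test of shUGDH-2 against shUGDH-1 gave -0.35 ± 0.03 (SE; edgeR adjusted p = 4.92e-12).

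CEBPG, a partner of ATF4 on CEBP-ATF elements, was lower with shUGDH-1. Its level was 42.4, 42.9 and 39.8 CPM in shUGDH-2, 39.4, 37.8 and 35.3 CPM in shUGDH-1, and 44.3, 44.5 and 48.0 CPM in shNT. The shUGDH-2 libraries lay between the other groups and overlapped neither. It fell by 0.27 ± 0.06 on the log2 scale (SE) with shUGDH-1 (edgeR adjusted p = 0.000312), and its difference of -0.13 with shUGDH-2 was not called (edgeR adjusted p = 0.133). Whether the hairpins differed was not shown: shUGDH-2 against shUGDH-1 gave 0.15 (edgeR adjusted p = 0.116).

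DDIT3, which encodes the pro-apoptotic factor CHOP, was low and overlapped between groups. Its level was 13.2, 12.2 and 12.3 CPM in shUGDH-2, 11.8, 11.4 and 13.5 CPM in shUGDH-1, and 12.8, 12.8 and 14.4 CPM in shNT. The log2 fold change was -0.09 with shUGDH-2 (95% interval -0.29 to 0.12) and -0.14 with shUGDH-1 (95% interval -0.35 to 0.07). A rise or fall within these intervals was not detectable at this depth. DDIT3 and MARS overlap by 62 exon bases on opposite strands, and how the authors' counting treated strand is not given in the sources used here.

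CEBPB, another dimer partner of ATF4, varied widely within groups and is singled out here after its values were seen. Its level was 123, 118 and 93.2 CPM in shUGDH-2, 76.5, 80.3 and 93.9 CPM in shUGDH-1, and 68.1, 87.7 and 93.5 CPM in shNT. Replicates 1 and 2 of shUGDH-2 lay above all other libraries, and its replicate 3 lay within the range of shNT. The log2 fold change of 0.43 ± 0.16 (SE) was not called (edgeR adjusted p = 0.147). ATF5, a factor of the mitochondrial stress response, and NUPR1, a small stress-induced chromatin protein, were called with neither hairpin. NUPR1 had 41 counts over the 3 shUGDH-2 libraries, 27 over those of shUGDH-1 and 37 over those of shNT, which leaves wide intervals.

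Among the 7 feedback and stress effectors, 2 rose and 1 fell with each UGDH hairpin (42.9% called), where 14.9% of all tested genes were called with shUGDH-2 and 20.8% with shUGDH-1. With 3 calls among 7 genes, nothing particular to the role is read from that share. PPP1R15A encodes GADD34, which recruits the phosphatase that removes phosphate from eIF2. It stood at 396, 399.5 and 415 CPM in shUGDH-2, at 458, 452 and 462 CPM in shUGDH-1, and at 464, 489 and 488 CPM in shNT. The 3 groups did not overlap, and shUGDH-2 was lowest. PPP1R15A fell by 0.25 ± 0.02 on the log2 scale (SE) with shUGDH-2 (edgeR adjusted p = 4.36e-13). With shUGDH-1 it fell by 0.07 ± 0.02 (SE; edgeR adjusted p = 0.0209), a call that was lost with DESeq2 and without replicate 2 or 3 of shNT or replicate 1 or 2 of shUGDH-1 (adjusted p up to 0.126). The hairpins differed directly, with shUGDH-2 against shUGDH-1 at -0.18 ± 0.02 (SE; edgeR adjusted p = 2.13e-08).

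TRIB3, a pseudokinase that binds ATF4 and restrains its activity, was higher with both hairpins. Its level was 57.4, 58.5 and 60.7 CPM in shUGDH-2, 60.5, 59.7 and 62.6 CPM in shUGDH-1, and 50.9, 51.1 and 55.5 CPM in shNT. Every library with a UGDH hairpin lay above every shNT library. TRIB3 rose by a log2 fold change of 0.17 ± 0.05 with shUGDH-2 (SE; edgeR adjusted p = 0.0185) and of 0.21 ± 0.05 with shUGDH-1 (SE; edgeR adjusted p = 0.0013). The shUGDH-2 call was lost with DESeq2 and without replicate 1 or 2 of shNT or replicate 3 of shUGDH-2 (adjusted p up to 0.094).

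GDF15, a secreted stress cytokine, gave the largest called change of the 46 genes and was called with shUGDH-2 alone. It stood at 18.4, 22.9 and 21.7 CPM in shUGDH-2, at 13.5, 14 and 13.7 CPM in shUGDH-1, and at 13.1, 14.7 and 15.5 CPM in shNT. All shUGDH-2 libraries lay above all others, and those of shUGDH-1 lay within the range of shNT. GDF15 was 1.46-fold higher with shUGDH-2 than with shNT (log2 fold change 0.55 ± 0.09, SE; edgeR adjusted p = 7.9e-06). The log2 fold change with shUGDH-1 was -0.07 (95% interval -0.27 to 0.13). The hairpins differed directly by a log2 fold change of 0.62 ± 0.09 (SE; edgeR adjusted p = 7.31e-07).

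VLDLR, a lipoprotein receptor that ATF4 is known to induce, was called with shUGDH-1. Its level was 5.31, 5.47 and 5.74 CPM in shUGDH-2, 8.39, 6.02 and 6.51 CPM in shUGDH-1, and 5.53, 5.10 and 4.69 CPM in shNT. Replicate 1 of shUGDH-1 stood above its other 2 libraries. The log2 fold change with shUGDH-1 was 0.45 ± 0.15 (SE; edgeR adjusted p = 0.024), and without that replicate it was 0.29, with the call lost (adjusted p = 0.271). The call was also lost with DESeq2 and without replicate 2 or 3 of shNT. DDIT4 and SESN2, both brakes on mTORC1, and CHAC1, which degrades glutathione, were called with neither hairpin. CHAC1 averaged 5.44 ± 0.356 CPM in shUGDH-2, 5.93 ± 0.565 CPM in shUGDH-1 and 4.84 ± 0.684 CPM in shNT (SD, n = 3), with overlapping groups.

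**Figure D2:**
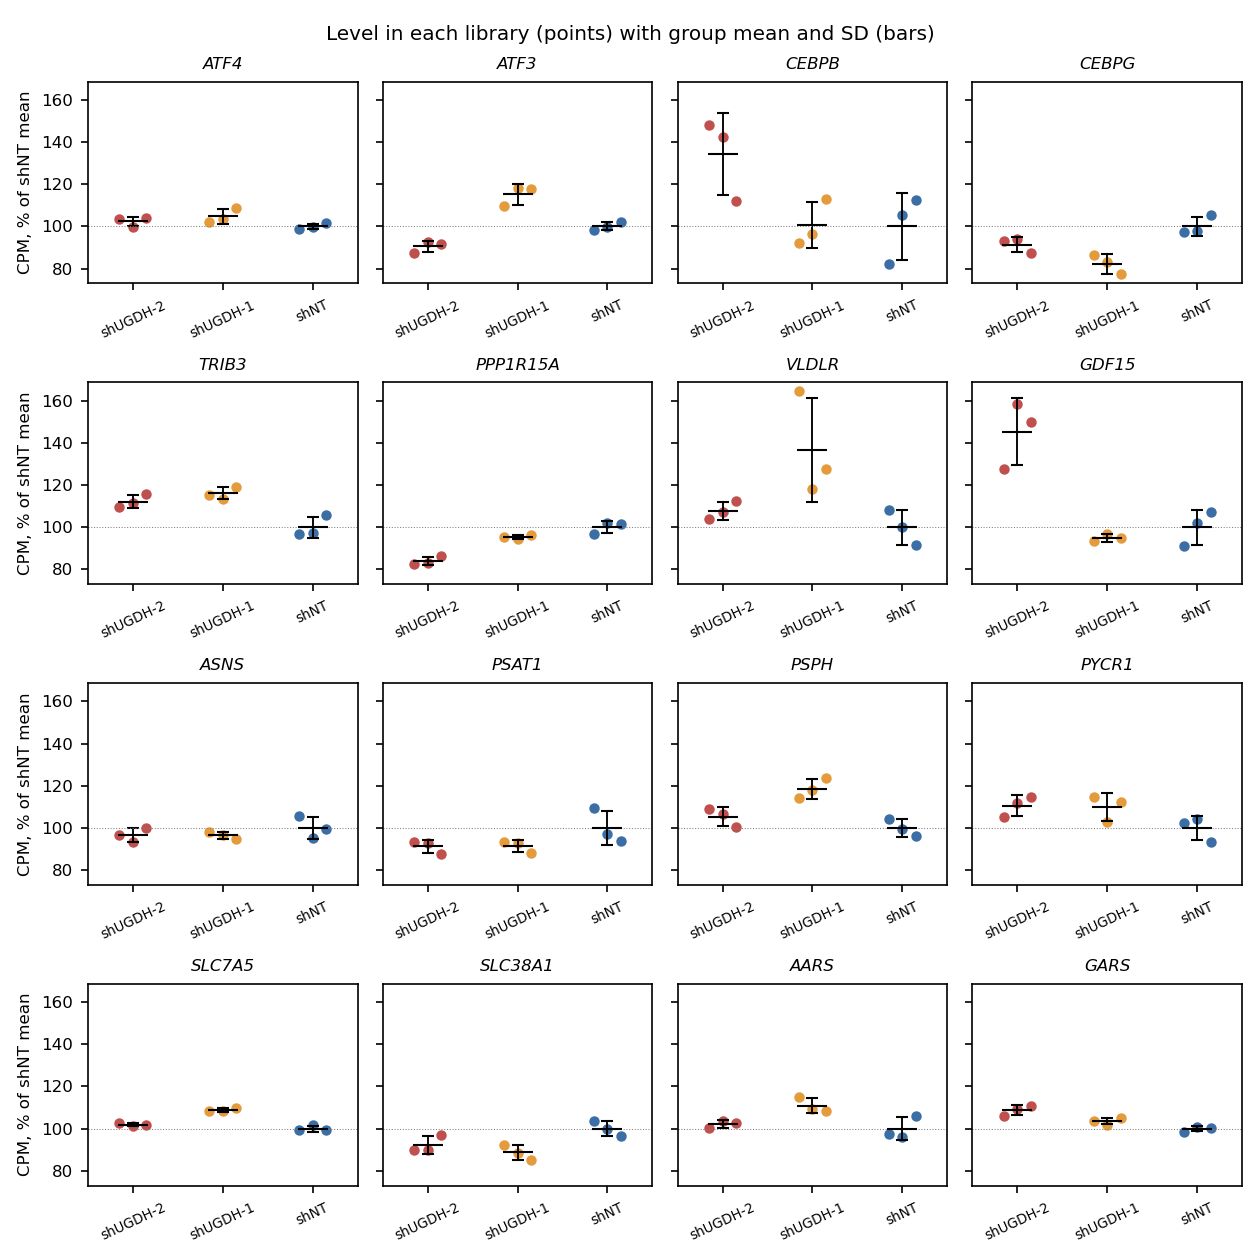
CPM of 16 genes of the group, as a percentage of each gene's shNT mean (dotted line), with 1 point per library and bars for the group mean and SD, in the order shUGDH-2, shUGDH-1, shNT. ATF3 and PPP1R15A separate all 3 groups, GDF15 is raised in the 3 shUGDH-2 libraries only, and ATF4 differs little between groups.

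The synthesis enzymes did not share a direction. Of the 11 tested, 1 rose and 1 fell with shUGDH-2 (18.2% called, against 14.9% of all tested genes), and 2 rose and 3 fell with shUGDH-1 (45.5%, against 20.8%). ASNS, which makes asparagine and is among the most responsive ATF4 targets known, stood at 68.9, 66.5 and 71.1 CPM in shUGDH-2, at 69.8, 68.8 and 67.6 CPM in shUGDH-1, and at 75.2, 67.8 and 70.7 CPM in shNT. The 3 groups overlapped. Its log2 fold change was -0.05 with shUGDH-2 (95% interval -0.15 to 0.04) and -0.05 with shUGDH-1 (95% interval -0.15 to 0.04). ASNS shares 79.7% of its exon bases with another annotated transcript on the same strand, so its reads cannot be assigned to it alone.

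PHGDH, the first enzyme of serine synthesis, was barely detected. It stood at 1.26, 1.08 and 0.808 CPM in shUGDH-2, at 1.23, 1.28 and 0.543 CPM in shUGDH-1, and at 1.69, 1.70 and 1.11 CPM in shNT. These levels come from 39, 38 and 55 counts over the 3 libraries of shUGDH-2, shUGDH-1 and shNT, and the groups overlapped. The log2 fold change of -0.52 with shUGDH-2 (95% interval -1.17 to 0.13) and of -0.49 with shUGDH-1 (95% interval -1.14 to 0.16) was not resolved at this depth.

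PSAT1, the second enzyme of the pathway, was well expressed in the same cells. Its level was 125, 124 and 117 CPM in shUGDH-2, 125, 124 and 118 CPM in shUGDH-1, and 146, 130.2 and 125 CPM in shNT. Replicate 1 of shNT was the highest library, and replicate 3 of shNT lay beside the highest UGDH-hairpin libraries. PSAT1 fell by 0.14 ± 0.04 with shUGDH-2 (SE; edgeR adjusted p = 0.0182) and by 0.13 ± 0.04 with shUGDH-1 (SE; edgeR adjusted p = 0.0197), both on the log2 scale. These calls depend on 1 control library: without replicate 1 of shNT the log2 fold changes were -0.06 and -0.06 (adjusted p = 0.355 and 0.36). They were also lost with DESeq2, and without replicate 3 of the hairpin tested.

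PSPH, the third enzyme, releases serine from phosphoserine and was higher with shUGDH-1. It stood at 42.6, 41.7 and 39.3 CPM in shUGDH-2, at 44.7, 46.1 and 48.4 CPM in shUGDH-1, and at 40.9, 38.9 and 37.7 CPM in shNT. All shUGDH-1 libraries lay above all others, and those of shUGDH-2 overlapped shNT. PSPH rose by a log2 fold change of 0.24 ± 0.06 with shUGDH-1 (SE; edgeR adjusted p = 0.0015), and the log2 fold change with shUGDH-2 was 0.07 (edgeR adjusted p = 0.476). The serine branch thus gave an enzyme higher with shUGDH-1 (PSPH), an enzyme called lower that rests on a control library (PSAT1), and an enzyme near the detection limit (PHGDH).

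In mitochondrial one-carbon metabolism, SHMT2, which splits serine into glycine and a one-carbon unit, averaged 207 ± 7.55 CPM in shUGDH-2, 209 ± 2.06 CPM in shUGDH-1 and 207 ± 4.63 CPM in shNT (SD, n = 3). The groups overlapped and its log2 fold change was 0.002 and 0.01. MTHFD2, the next enzyme, fell by 0.17 ± 0.05 on the log2 scale with shUGDH-1 (SE; edgeR adjusted p = 0.0143). That call was lost with DESeq2 and without replicate 1 or 3 of shNT or replicate 2 of shUGDH-1 (adjusted p up to 0.0807). Its difference of -0.055 with shUGDH-2 was not called (edgeR adjusted p = 0.557), nor was shUGDH-2 against shUGDH-1 (edgeR adjusted p = 0.165). MTHFD2 has 7 named pseudogenes and overlaps SLC4A5 over 29.7% of its exon bases, so its counts are uncertain. ALDH1L2, which oxidises formyl-tetrahydrofolate in mitochondria, had 35, 34 and 28 counts over the libraries of shUGDH-2, shUGDH-1 and shNT.

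Of the proline enzymes, PYCR1, which catalyses the last step, was called higher with both hairpins. Its level was 104, 110.0 and 113 CPM in shUGDH-2, 113, 101 and 111 CPM in shUGDH-1, and 101, 103 and 91.9 CPM in shNT. The shUGDH-2 libraries lay above those of shNT, and replicate 2 of shUGDH-1 lay within the shNT range. PYCR1 rose by a log2 fold change of 0.15 ± 0.04 with shUGDH-2 (SE; edgeR adjusted p = 0.0143) and of 0.13 ± 0.04 with shUGDH-1 (SE; edgeR adjusted p = 0.0218). Both calls were lost with DESeq2 and without replicate 3 of shNT. The shUGDH-2 call was also lost without replicate 2 or 3 of shUGDH-2 and the shUGDH-1 call without replicate 1 or 3 of shUGDH-1 (adjusted p up to 0.202). An antisense transcript covers 19.6% of PYCR1 exon bases.

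ALDH18A1, which starts proline synthesis from glutamate, averaged 177 ± 0.653 CPM in shUGDH-2, 162 ± 5.29 CPM in shUGDH-1 and 174 ± 5.22 CPM in shNT (SD, n = 3). It fell by 0.10 ± 0.03 on the log2 scale with shUGDH-1 (SE; edgeR adjusted p = 0.0272), a call that was lost with DESeq2 and without replicate 1 of shNT or replicate 1 or 3 of shUGDH-1. The first and last steps of the proline branch therefore had opposite signs with shUGDH-1. PCK2, which makes phosphoenolpyruvate in mitochondria, and CTH, which makes cysteine from cystathionine, were called with neither hairpin. CBS, the enzyme before CTH, had 0 counts in the shUGDH-2 libraries, 2 counts in replicate 1 of shUGDH-1 and 0 counts in every shNT library. A count of 0 allows up to 3 counts in a library, so no comparison was possible for it.

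Of the 8 transporters, none rose and 2 fell with shUGDH-2 (25% called, against 14.9% of all tested genes), and 1 rose and 1 fell with shUGDH-1 (25%, against 20.8%). SLC7A5 and SLC3A2 form the exchanger that brings in leucine and other large amino acids, SLC7A5 being its transporter and SLC3A2 its chaperone subunit. SLC7A5 averaged 1353 ± 11.8 CPM in shUGDH-2, 1444 ± 11 CPM in shUGDH-1 and 1327 ± 19.2 CPM in shNT (SD, n = 3). It rose with shUGDH-1 by a log2 fold change of 0.12 ± 0.02 (SE; edgeR adjusted p = 6.55e-08), and its shUGDH-2 value was 0.03 (edgeR adjusted p = 0.297). SLC3A2 averaged 292 ± 6.14 CPM in shUGDH-2, 305 ± 3.94 CPM in shUGDH-1 and 317 ± 4.06 CPM in shNT (SD, n = 3). It fell by 0.12 ± 0.03 on the log2 scale with shUGDH-2 (SE; edgeR adjusted p = 0.000304), and its difference of -0.06 with shUGDH-1 was not called (edgeR adjusted p = 0.099). The 2 subunits thus did not move together with either hairpin.

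SLC38A1, a sodium-coupled carrier of glutamine, was lower with both hairpins. It stood at 242, 242 and 261 CPM in shUGDH-2, at 249, 239 and 229 CPM in shUGDH-1, and at 279, 269 and 259.7 CPM in shNT. Replicate 3 of shUGDH-2 lay just above replicate 3 of shNT, and the other UGDH-hairpin libraries lay below all of shNT. SLC38A1 fell by 0.12 ± 0.03 with shUGDH-2 (SE; edgeR adjusted p = 0.00499) and by 0.17 ± 0.03 with shUGDH-1 (SE; edgeR adjusted p = 3.03e-05), both on the log2 scale. The shUGDH-2 call was lost without replicate 1 or 2 of shUGDH-2 (adjusted p up to 0.0588). The related carrier SLC38A2, which amino acid shortage is known to induce, had a log2 fold change of -0.03 with shUGDH-2 and 0.02 with shUGDH-1. The arginine carrier SLC7A1, the glutamine exchanger SLC1A5, the serine and alanine exchanger SLC1A4 and the glycine carrier SLC6A9 were called with neither hairpin.

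The 12 tRNA synthetases changed little. With shUGDH-2 1 rose and none fell (8.33% called, against 14.9% of all tested genes), and with shUGDH-1 1 rose and 3 fell (33.3%, against 20.8%). Their summed level was 3055, 3139.7 and 3100.1 CPM in shUGDH-2, 3021, 3031 and 3041 CPM in shUGDH-1, and 3074, 3080.5 and 3099 CPM in shNT. The shUGDH-1 sums lay below all shNT sums, and the shUGDH-2 sums ran on both sides of them. GARS, the glycyl-tRNA synthetase, averaged 419 ± 9.57 CPM in shUGDH-2, 399 ± 5.62 CPM in shUGDH-1 and 386 ± 4.99 CPM in shNT (SD, n = 3). It rose with shUGDH-2 by a log2 fold change of 0.12 ± 0.02 (SE; edgeR adjusted p = 9.33e-05). AARS, the alanyl-tRNA synthetase, averaged 136 ± 2.25 CPM in shUGDH-2, 147 ± 4.66 CPM in shUGDH-1 and 133 ± 7.16 CPM in shNT (SD, n = 3), and rose with shUGDH-1 by 0.15 ± 0.04 (SE; edgeR adjusted p = 0.00121) on the log2 scale.

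The 3 synthetases called lower with shUGDH-1 charge leucine, isoleucine and threonine. With shUGDH-2 none of them was called, at log2 fold changes of -0.015 for LARS, -0.055 for IARS and -0.024 for TARS. IARS differed little between the hairpins, with shUGDH-2 against shUGDH-1 at 0.007 (edgeR adjusted p = 0.898). LARS fell by 0.14 ± 0.03 on the log2 scale with shUGDH-1 (SE; edgeR adjusted p = 0.000592). TARS fell by 0.08 ± 0.02 (SE; edgeR adjusted p = 0.00514) and lost its call without replicate 3 of shNT (adjusted p = 0.0527). IARS fell by 0.06 ± 0.02 (SE; edgeR adjusted p = 0.0382) and lost its call with upper-quartile scaling, without the low-count filter, with DESeq2 and without any of 5 libraries (replicates 1 and 3 of shNT, 1 and 2 of shUGDH-1, 1 of shUGDH-2; adjusted p up to 0.264). CARS, MARS, NARS, SARS, WARS, YARS and EPRS were called with neither hairpin, at log2 fold changes between -0.05 and 0.05 with shUGDH-2 and between -0.07 and 0.05 with shUGDH-1.

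**Figure D3:**
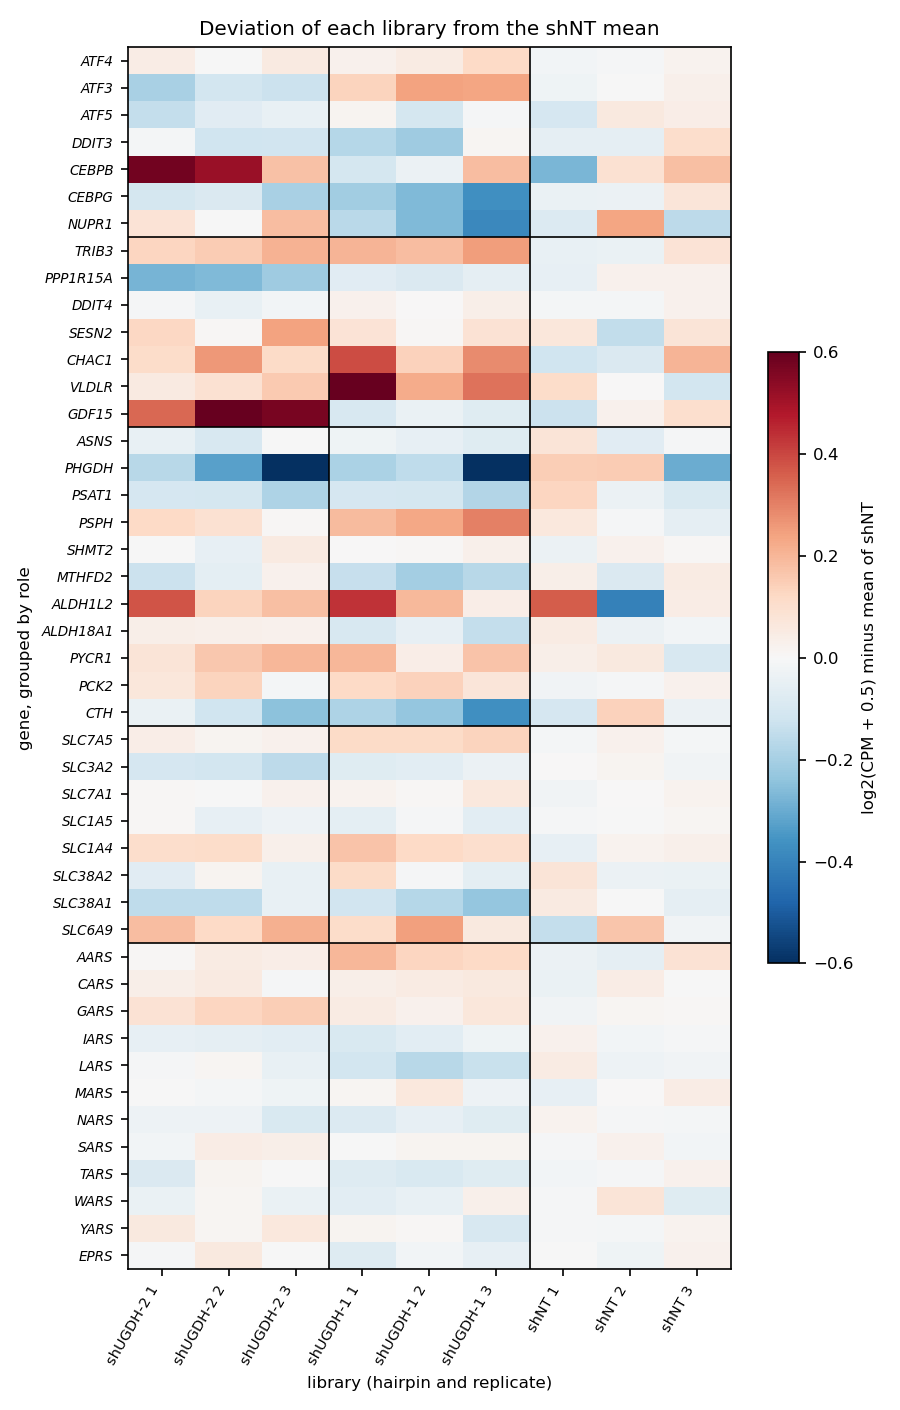
Log2(CPM + 0.5) of the 45 tested genes in each library, as the difference from the gene's shNT mean, grouped by role, with libraries in the order shUGDH-2, shUGDH-1, shNT. Colours saturate at 0.6 in either direction. No role changes colour as a block between hairpins, and ATF3, GDF15 and PPP1R15A show the clearest group pattern.

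Genes with and without the CEBP-ATF core gave similar counts. Of the 16 with the core, 1 rose and 3 fell with shUGDH-2, with a log2 fold change of -0.024 at the median, while 2 rose and 4 fell with shUGDH-1, at a median of -0.011. Of the 22 tested genes with a window and no core, 2 rose and 2 fell with shUGDH-2, at a median of 0.019, and 3 rose and 4 fell with shUGDH-1, at a median of -0.016. Over all tested genes, 8.04% rose and 6.81% fell with shUGDH-2, and 10.5% rose and 10.3% fell with shUGDH-1. No test was made of these counts. Among the genes printed above, AARS rose and CEBPG, SLC38A1, IARS and TARS fell with shUGDH-1, while GARS rose and SLC38A1 and SLC3A2 fell with shUGDH-2. ATF3, which has a core but is not printed, rose with shUGDH-1 and fell with shUGDH-2. The printed sequences of AARS and TARS, both with the core TGATGCAA, thus belong to genes called in opposite directions with shUGDH-1.

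The direct comparison of the UGDH hairpins found 4 genes higher and 5 lower in shUGDH-2 than in shUGDH-1, of 45 tested, where 5.36% of all tested genes were higher and 5.51% lower. At 100 CPM or more, 7 of 26 genes of the group (26.9%) and 24% of all genes were called. Besides ATF3, PPP1R15A and GDF15, already given, SLC7A5 was lower in shUGDH-2 by a log2 fold change of -0.09 ± 0.02 (SE; edgeR adjusted p = 3e-05). ALDH18A1 was higher by 0.13 ± 0.03 (SE; edgeR adjusted p = 0.00491) and LARS by 0.12 ± 0.03 (SE; edgeR adjusted p = 0.00423). The ALDH18A1 call was lost without replicate 3 of shUGDH-1 (adjusted p = 0.0533) and that of LARS without replicate 2 of shUGDH-1 (adjusted p = 0.0546). AARS (log2 fold change -0.12, edgeR adjusted p = 0.021), GARS (0.07, edgeR adjusted p = 0.0276) and PSPH (-0.17, edgeR adjusted p = 0.0497) also passed. The AARS call was lost with DESeq2 and without replicate 1 of either UGDH hairpin. That of GARS was lost with DESeq2 and without replicates 1 or 2 of shUGDH-1 or 2 or 3 of shUGDH-2, and that of PSPH under 5 of 6 other settings and on leaving out 8 of the 9 libraries, each in turn.

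Corrected for transcript length, the group spanned a wide range of levels. Levels per length are CPM per kilobase of merged exons in GENCODE 29 on GRCh38 (the authors used hg19). SLC7A5 was highest, at 294.9 ± 2.57 in shUGDH-2, 314.8 ± 2.40 in shUGDH-1 and 289 ± 4.20 in shNT (SD, n = 3). In shNT it was followed by PPP1R15A at 202 ± 5.96, DDIT4 at 199.5 ± 3.06, SARS at 183 ± 3.12, GARS at 145.5 ± 1.88, SLC1A5 at 126 ± 0.878, TARS at 122 ± 1.81 and SLC3A2 at 119.6 ± 1.53 CPM per kilobase. PPP1R15A and DDIT4 did not differ beyond their SDs, nor did TARS and SLC3A2. With both UGDH hairpins PPP1R15A stood below DDIT4, at 169.7 ± 4.12 against 196 ± 2.67 CPM per kilobase in shUGDH-2 and at 192 ± 2.02 against 202.5 ± 2.16 CPM per kilobase in shUGDH-1. At the other end in shNT stood PHGDH at 0.563 ± 0.127, VLDLR at 0.557 ± 0.0462, NUPR1 at 0.183 ± 0.0409 and ALDH1L2 at 0.1001 ± 0.0431 CPM per kilobase. In the serine pathway the 3 enzymes stood at very unequal levels in shNT, with PHGDH at 0.563, PSAT1 at 61.2 and PSPH at 18.0 CPM per kilobase, and the same order held in shUGDH-2 and shUGDH-1.

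**Figure D4:**
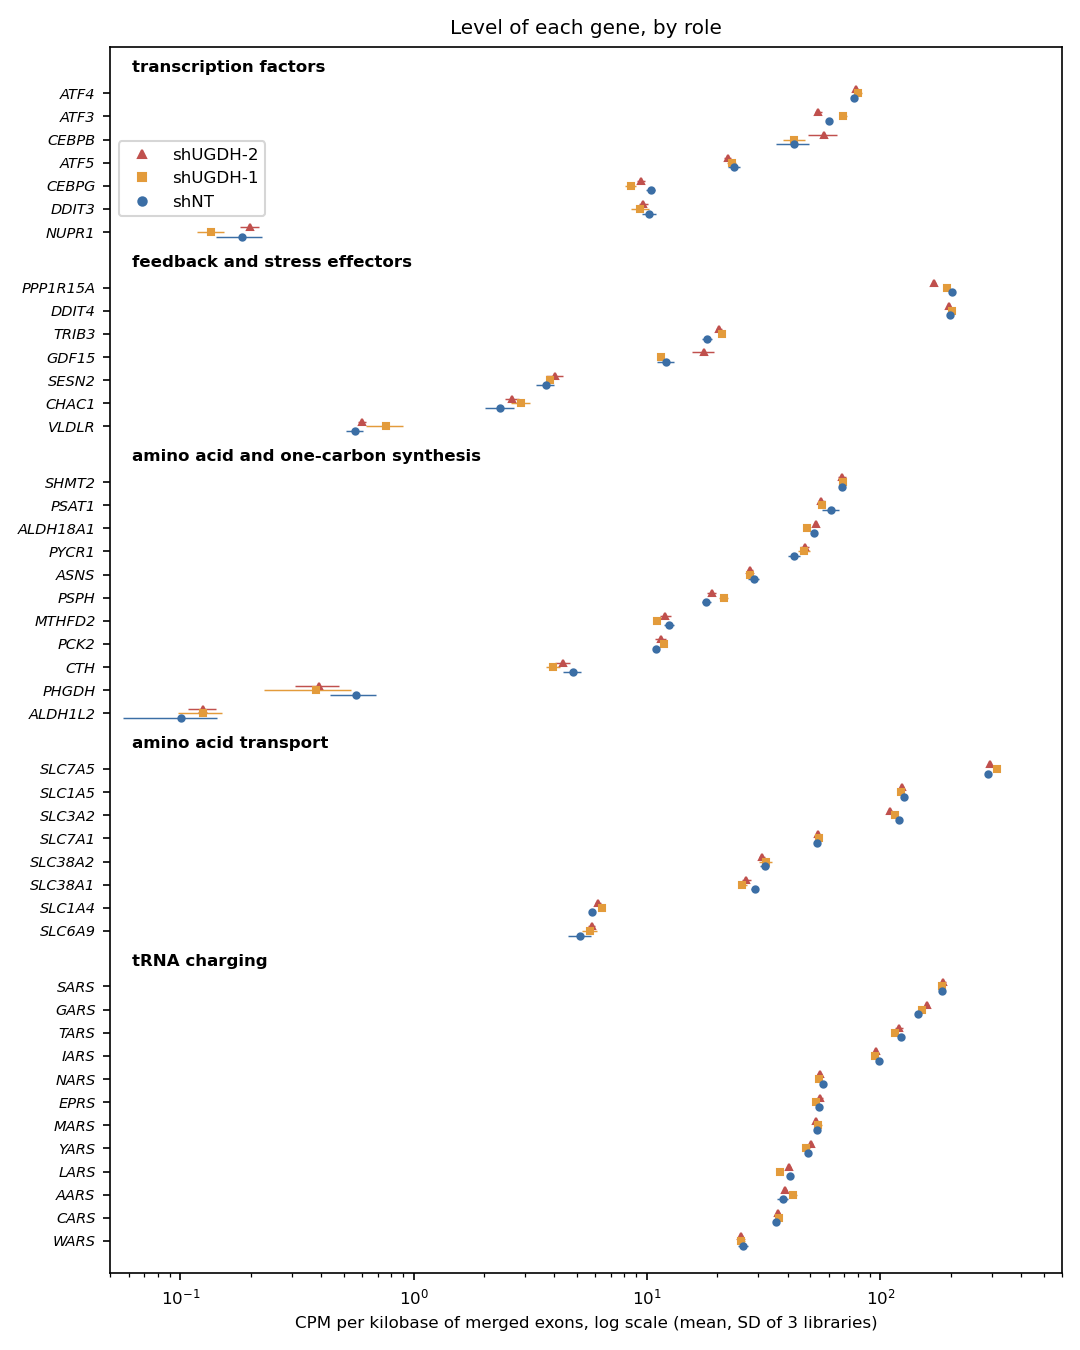
Mean level per length (CPM per kilobase of merged exons, log axis) of the genes with an SD bar over 3 libraries, for shUGDH-2, shUGDH-1 and shNT, ordered within each role by the level in shNT. CBS, at 0 in shNT, is left out. The symbols of the 3 groups nearly coincide for most genes, while the genes themselves range between 0.1001 (ALDH1L2) and 289 (SLC7A5) in shNT.

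The rest of the pathway was read from lists of 98 further genes, of which 89 were tested. With shUGDH-2 2 rose and 8 fell (11.2% called, against 14.9% of all tested genes), and with shUGDH-1 11 rose and 15 fell (29.2% called, against 20.8% of all tested genes). In the direct comparison, 6 were higher and 10 lower in shUGDH-2 than in shUGDH-1 (18% called, against 10.9% of all tested genes). The counts for single lists below stand beside the same background. Of the 15 genes for eIF2 kinases, eIF2 and its exchange factor, 1 rose and 4 fell with shUGDH-2, and 1 rose and 3 fell with shUGDH-1. EIF2AK1, the kinase HRI that relays heme and mitochondrial stress, averaged 197 ± 3.97 CPM in shUGDH-2, 189 ± 5.58 CPM in shUGDH-1 and 176 ± 3.81 CPM in shNT (SD, n = 3), and rose with both. The eIF2 subunits EIF2S2 and EIF2S3 fell with both: EIF2S3 averaged 283 ± 1.79 CPM in shUGDH-2, 272 ± 9.64 CPM in shUGDH-1 and 301 ± 5.47 CPM in shNT. The EIF2AK1 call with shUGDH-1 was lost with DESeq2 and without replicate 1 of shNT or 2 of shUGDH-1, and the EIF2S3 call with shUGDH-2 with DESeq2 and without replicate 3 of shNT or 1 of shUGDH-2. The EIF2S2 call with shUGDH-2 was lost under 3 of 6 other settings and without any of 7 libraries (adjusted p up to 0.343).

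Of 13 tested further ATF4 targets, 1 rose and 1 fell with shUGDH-2, and 4 rose and 3 fell with shUGDH-1. SLC7A11, the cystine importer, fell with both. It stood at 82.8, 89.3 and 85.7 CPM in shUGDH-2, at 67.9, 65.9 and 66.2 CPM in shUGDH-1, and at 122, 108 and 110.5 CPM in shNT, with no overlap between groups. Its fold was 0.757 with shUGDH-2 and 0.588 with shUGDH-1, a larger change than that of any of the 46 genes that was called as lower. JDP2, a bZIP repressor related to ATF3, rose with shUGDH-1 (log2 fold change 0.44). Its shUGDH-2 value of 0.18 was not called (edgeR adjusted p = 0.356), nor was the direct difference between the hairpins (edgeR adjusted p = 0.159). HERPUD1, a component of endoplasmic reticulum degradation, rose with both, at 51.4 ± 2.52 CPM in shUGDH-2, 49.2 ± 2.14 CPM in shUGDH-1 and 43.0 ± 1.87 CPM in shNT (SD, n = 3). The HERPUD1 call with shUGDH-1 was lost with DESeq2 and without replicate 1 of shNT or of shUGDH-1, and the JDP2 call without replicate 1 of shNT (adjusted p = 0.0551).

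Of 19 tested folate, methionine, glutamate and proline enzymes, none passed with shUGDH-2, and 3 rose and 3 fell with shUGDH-1. The folate enzymes MTHFD2L and ALDH1L1 were called with shUGDH-1, at log2 fold changes of -0.56 and 0.50. With shUGDH-2 they were not called, at -0.18 and 0.40 (edgeR adjusted p = 0.496 and 0.121). The direct test of the hairpins called neither (edgeR adjusted p = 0.137 and 0.785). Both were low, at means of 5.87 and 3.55 CPM in shNT. Of 14 further transporters, none rose and 1 fell with shUGDH-2, and 2 rose and 1 fell with shUGDH-1. Among these the glutamate carrier SLC1A3 rose with shUGDH-1 (log2 fold change 0.64). Its shUGDH-2 value of 0.37 was not called (edgeR adjusted p = 0.143), nor was the direct difference between the hairpins (edgeR adjusted p = 0.295). SLC1A3 averaged 3.79 CPM in shNT. Of 11 further cytosolic synthetases and scaffold proteins, none rose and 1 fell with shUGDH-2, and 1 rose and 3 fell with shUGDH-1. The scaffold protein AIMP1 of the synthetase complex fell with both (log2 fold change -0.23 with shUGDH-2 and -0.20 with shUGDH-1). Its partner EEF1E1 fell with shUGDH-1 (log2 fold change -0.42), with -0.39 in shUGDH-2 just outside the call (edgeR adjusted p = 0.0502). Of 17 mitochondrial synthetases, none rose with either hairpin, 1 fell with shUGDH-2 and 2 fell with shUGDH-1, and CARS2 fell with both. Calls lost with DESeq2 were those of MTHFD2L, ALDH1L1 and EEF1E1 with shUGDH-1 and of CARS2 with shUGDH-2. The ALDH1L1 call was also lost without replicate 2 or 3 of shNT or 1 or 2 of shUGDH-1, and the EEF1E1 call without replicate 1 of shNT or 2 or 3 of shUGDH-1. The AIMP1 call with shUGDH-1 was lost without replicate 3 of shNT or of shUGDH-1. CARS2 lost both calls without replicate 2 of shNT, and the shUGDH-2 call also without replicate 1 or 2 of shUGDH-2 (adjusted p up to 0.217).

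In the authors' deposited tables, 3 of the 43 genes of the group with an adjusted p were higher and 3 lower with shUGDH-2, where 10.2% of all genes passed. With shUGDH-1, the authors' deposited table gives 5 higher and 5 lower of 44, where 16.2% of all genes passed. Each of these genes was also called in the same direction by edgeR here. The reverse did not hold. With shUGDH-1, PPP1R15A, VLDLR, PSAT1, ALDH18A1, PYCR1 and IARS were called by edgeR but not in the authors' table. With shUGDH-2 this held for PSAT1, PYCR1 and SLC38A1. CEBPB with both hairpins and PSAT1 with shUGDH-2 were marked as outliers by the authors and had no adjusted p there.

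The libraries held between 9249738 and 13328002 counts, the lowest in replicate 3 of shUGDH-1. Replicate 1 of shNT stood somewhat apart: the variance between 2 libraries of a group was 1.2 to 1.91 times what counting would give, and its pairs with the other shNT libraries gave 1.91 and 1.87. Of the markers of the labelled line, VIM, CD44, EGFR, AXL and CAV1 were expressed in every library. Of 5 luminal and epithelial genes known to be low or absent in it, PGR was at 0, ESR1 reached 0.109 CPM and CDH1 1.1 CPM, while EPCAM (7.4 to 11.8 CPM) and GATA3 (34.1 to 48.1 CPM) were detected in every library. CD3E, of T cells, and the fibroblast genes DCN and LUM were at 0 in every library. The monocyte gene CD14 was not, at 1.68 to 2 CPM in shUGDH-2, 2.06 to 2.54 CPM in shUGDH-1 and 1.46 to 1.62 CPM in shNT, higher with both UGDH hairpins and with no overlap with shNT. The fibroblast genes PDGFRB and COL1A1 were detected in every library. PDGFRB stood at 21 to 22.9 CPM in shUGDH-2, 19.6 to 21.6 CPM in shUGDH-1 and 18.5 to 21 CPM in shNT. COL1A1 stood at 12.4 to 13.9 CPM in shUGDH-2, 9.55 to 11.2 CPM in shUGDH-1 and 9.18 to 10.5 CPM in shNT. The summed level of 4 fibroblast markers was 34.9 to 36.6 CPM in shUGDH-2, 30.5 to 32.5 CPM in shUGDH-1 and 27.7 to 31.3 CPM in shNT. The summed level of the 5 luminal and epithelial genes was 52.9 to 58 CPM in shUGDH-2, 50.6 to 53.5 CPM in shUGDH-1 and 43.4 to 49.1 CPM in shNT, and the part of these markers in the results was not tested. The annotation names pseudogenes for ATF4, ASNS, PSAT1, PSPH, MTHFD2, SLC7A5, AARS, CARS, GARS, NARS and WARS, and an antisense gene covers 48.5% of the exon bases of DDIT4, so their counts are uncertain to that extent.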

How the data were processed

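The members of the gene group and the other lists were chosen with earlier results of these data known. Per the labels' protocols, RNA from an RNeasy kit went into NuGen Universal Plus mRNA libraries, read in pairs on a NextSeq instrument. The authors deposited raw read counts per gene, whole numbers with no normalization. STAR, DESeq, DESeq2 and the genome build hg19 are named in the submitters' processing notes. The sources used here do not give versions, annotation, counting tool or strand setting. Per the file headers, the tables of comparisons that the authors deposited hold a mean signal per gene, a log2 fold change, its error, and raw and adjusted p-values. They were used only to compare calls.

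Of 23710 entries, 28 with date-like symbols (0.232% of counts) stayed in the fit unnamed, and no per-sample column was left out. edgeR 4.0.16 (R 4.3.3, limma 3.58.1) filtered genes with filterByExpr, which left 12546 genes with 99.93% of the counts. TMM factors were 0.997 to 1.003. A robust quasi-likelihood fit on the 9 libraries (a mean for each group, 6 residual degrees of freedom) gave a common biological coefficient of variation of 0.0202. p-values were Benjamini-Hochberg adjusted over all tested genes and called under 0.05. The test was checked on simulated counts before use. CPM are counts scaled to a common TMM-adjusted total. Intervals and the 3-count limit cover counting error or the spread of 3 libraries only, and 9249738 to 13328002 counts per library set the precision.

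Values per library are given for ATF4, DDIT3, ASNS, PHGDH, PSAT1, genes called with both hairpins, and genes called with 1 of them at an absolute log2 fold change of at least 0.2. CEBPB and the core-element genes other than these were chosen after their values were seen. From each further list, up to 4 genes called with both hairpins and those called at 0.3 or more were named. Alternatives were DESeq2 1.42.0, RLE and upper-quartile scaling, no low-count filter, a fit to the 2 groups compared, a replicate block, and each library left out in turn. Same-numbered libraries did not deviate together (correlations -0.041 to 0.069). The leukocyte marker list is not reported here as a whole.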

Additional observations from a re-analysis of the deposited data

Results flagged for a closer look

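The effects of the UGDH hairpins differed by the direct test of shUGDH-2 against shUGDH-1 (edgeR quasi-likelihood test, Benjamini-Hochberg adjusted over all tested genes) for 9 of the 45 tested genes of the group (20%). Over all tested genes 10.9% were called, and at 100 CPM or more 26.9% of the group and 24% of all genes. Of the 89 tested genes of the wider pathway lists 16 differed, of which SLC7A11 is given because the naming rule takes it. ATF3 stood lower in shUGDH-2, at a log2 fold change of -0.347, with a mean of 138 ± 4.28 CPM in shUGDH-2 and 175 ± 7.51 CPM in shUGDH-1 (SD, n = 3), on opposite sides of shNT. GDF15 stood higher in shUGDH-2, at 0.617, with 21.0 ± 2.29 CPM in shUGDH-2 and 13.7 ± 0.261 CPM in shUGDH-1. PPP1R15A was lower at -0.18, with 403 ± 9.79 CPM in shUGDH-2 and 457 ± 4.81 CPM in shUGDH-1. SLC7A11, which lay below shNT with both hairpins, was higher in shUGDH-2 than in shUGDH-1 at 0.366. VEGFA, named after its values were seen, was also higher in shUGDH-2, at 0.33 (edgeR adjusted p = 9e-13). Against shNT, VEGFA fell with shUGDH-1 (log2 fold change -0.275, edgeR adjusted p = 3.24e-10) and was not called with shUGDH-2 (0.056, edgeR adjusted p = 0.232). SLC7A5 (-0.094), PSPH (-0.166) and AARS (-0.118) were lower in shUGDH-2, and ALDH18A1 (0.125), LARS (0.122) and GARS (0.073) were higher. The calls of PSPH, AARS and GARS were lost with DESeq2 and without some of the libraries. Those of ALDH18A1 and LARS were each lost without 1 library of shUGDH-1. UGDH stood at 6.62 to 8.09 CPM in shUGDH-2 and at 7.30 to 8.03 CPM in shUGDH-1, and which feature of the hairpins goes with these differences was not tested.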

How the results depend on the processing

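Among the 46 genes and the 12 named genes of the wider lists, no called value changed sign under any of the 6 alternative settings or with any of the 9 libraries left out. With DESeq2 fewer genes passed: 4 in place of 9 fell with shUGDH-1, 2 in place of 4 rose with shUGDH-2, and 3 in place of 5 were lower in shUGDH-2 than in shUGDH-1. DESeq2 also called fewer of all genes (1629 with shUGDH-1, 1011 with shUGDH-2). Leaving out 1 library gave 2 to 4 genes higher and 4 to 5 lower with shUGDH-2, 5 to 7 higher and 5 to 9 lower with shUGDH-1, and 2 to 5 higher and 3 to 5 lower between the hairpins. With 1 library left out, the median log2 fold change with shUGDH-2 lay between 0.0046 and 0.0153 and that with shUGDH-1 between -0.0103 and 0.0067, on both sides of 0. Among the other settings the shUGDH-2 median reached 0.0181 with upper-quartile scaling. Called under every setting and without each library were 5 of 9 genes with shUGDH-2, 8 of 16 with shUGDH-1 and 4 of 9 between the hairpins. The labels do not say whether replicate numbers pair the libraries. Same-numbered libraries did not deviate together, but counting gave much of the spread, so this cannot exclude pairing. The fit with a replicate block is given as an alternative. In it 4 rose and 5 fell with shUGDH-2 and 7 rose and 9 fell with shUGDH-1, with medians of 0.0096 and 0.0004. Between the hairpins, 4 were higher and 4 lower. Scaling moved the median of all genes by 0.0085 at most. Depth limits PHGDH, NUPR1 and ALDH1L2, with 27 to 55 counts a group, and left CBS untested.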
